A study of Mus musculus with 9 samples.

Results

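Arms of 4 microRNA (miRNA) hairpins linked to BACE1, those of miR-328, miR-298, miR-188 and miR-186, were followed in mouse hippocampus after exposure to airborne fine particles (PM2.5). They are the miRNAs that the study's introduction links to BACE1, other than the miR-9, miR-29 and miR-107 families, and they were taken by name from the array files. The members are mmu-miR-186-5p, mmu-miR-186-3p, mmu-miR-188-5p, mmu-miR-298-5p, mmu-miR-328-3p and mmu-miR-328-5p (written without mmu from here on), 6 of the 1247 mouse miRNAs on the array. All 6 were among the 424 miRNAs called detected on every array of at least 1 group, which were the ones tested. In the study, male C57BL/6 mice about 8 weeks old received saline (control) or PM2.5 at 1 or 5 mg/kg body weight by oropharyngeal aspiration, in which fluid placed at the back of the throat is drawn into the lungs, on alternate days over 4 weeks. Total RNA of the hippocampus was hybridised to 1-colour Agilent mouse miRNA arrays, 1 array per sample and 3 per group. The figure legends speak of 3 mice a group, whereas the series description speaks of independent experiments with replicates. The p-values set group differences against the spread between arrays of the same group. Whether that is the spread between mice is not settled. The question was whether either dose shifted the level of these miRNAs.

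BACE1 (β-secretase) makes the first cut of the amyloid precursor protein on the way to the amyloid β peptide. A miRNA is cut from a hairpin that yields a 5p and a 3p arm, and the loaded arm pairs, mainly through its seed near the 5′ end, with sites in messenger RNAs and lowers their translation or stability. miR-298 and miR-328 are known for sites in the mouse BACE1 messenger RNA, and miR-186 for repressing BACE1 in neurons. For miR-188 the arm described as acting on BACE1 in the hippocampus is miR-188-3p, while the listed member is the 5p arm.

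The mature sequences show what the probes had to recognise and that the members do not form a seed family. RefSeq's table (GRCm38.p6) held 4 of the 6 members, and their seeds (bases 2 to 8, in capitals) were all different. Each is written 5′ to 3′.
miR-186-5p: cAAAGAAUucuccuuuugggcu
miR-186-3p: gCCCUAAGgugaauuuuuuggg
miR-188-5p: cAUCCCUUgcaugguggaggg
miR-298-5p: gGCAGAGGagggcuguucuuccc
The 2 arms of miR-186 lie at chr3:157544285-157544306 and chr3:157544324-157544345 on the plus strand, within the span of Zranb2. miR-188-5p lies at chrX:7248031-7248051 on the minus strand, within the span of Clcn5, and miR-298-5p at chr2:174267553-174267575 on the minus strand, in no other gene of the table. The miR-328 hairpin lies within the span of Elmo3. No other miRNA on the array with a sequence in the table shared a seed with these 4 members.

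The array reads each member with 2 or 4 probes. For the 4 members with a sequence in the table, all probes pair with the 3′ end and differ in how far they reach toward the 5′ end. The 4 probes of miR-298-5p are shown because they did not move together. Capitals mark the base that each probe has beyond the next shorter one.
Probe of 13 bases: gggaagaacagcc
Probe of 14 bases: gggaagaacagccC
Probe of 15 bases: gggaagaacagcccT
Probe of 16 bases: gggaagaacagccctC
They pair with miR-298-5p from base 11, 10, 9 and 8, respectively, to its last base, 23. The probes of miR-186-3p run from 19 to 22 bases and the longest spans the whole miRNA, whereas those of miR-188-5p span its last 10 to 13 bases only. Every probe of these 4 members paired in full with 1 mature sequence of the table, its own. The table held 1017 of the 1247 miRNAs on the array, so the rest were not searched, and partial pairing was not examined.

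The members differed in how safely they were measured. miR-186-5p, miR-188-5p, miR-328-3p and miR-328-5p were called detected on all 9 arrays, and 356, 356, 307 and 189 of their 360 spots were well above background. miR-186-3p was called detected on 8 arrays, all but control replicate 3, with only 6 of its 360 spots well above background. miR-298-5p was called detected on 7 arrays, on 1 of 3 control arrays and on all 6 arrays of exposed mice, with 22 of 360 spots well above background. Both miR-186-3p and miR-298-5p thus entered the test only through the exposed groups, a filter that favours a higher reading after exposure. Of the other arms on the array, miR-188-3p and miR-298-3p were detected on 0 of 9. The standard error over spots was 1.39 to 2.85% of the signal (median over arrays) for the 4 members detected throughout, 5.96% for miR-298-5p and 10.2% for miR-186-3p. No member's value lay under the lowest detected signal of its array, to which lower values were raised.

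The layout and the tissue touch all that follows. The 3 control arrays and 1 mg/kg replicate 1 shared row 1 of slide 1, 1 mg/kg replicates 2 and 3 and 5 mg/kg replicates 1 and 2 shared row 2 of that slide, and 5 mg/kg replicate 3 was alone on slide 2. All 6 neuronal marker miRNAs were detected on every array. Of the 4 liver and muscle markers, 2 were detected on none and 2, the muscle markers miR-1a-3p and miR-133a-3p, on all 9. The summed level of 5 choroid plexus miRNAs, relative to the 75th percentile of the array, was 3.22 to 5.03 in control, 5.53 to 8.91 at 1 mg/kg and 2.98 to 5.73 at 5 mg/kg, with all 5 detected on at least 1 array. That of 5 blood miRNAs, 1 of them detected on no array, was 3.15 to 3.97, 3.26 to 3.77 and 4.06 to 4.40, and that of 3 oligodendrocyte miRNAs 4.14 to 6.04, 5.08 to 6.35 and 2.89 to 6.74. The part of these tissue differences in the members' values was not tested. In tissue RNA, fewer cells that hold a miRNA and less of it per cell cannot be told apart.

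At neither dose did any member pass a test against the control. At 1 mg/kg, 0 of 6 members had a limma p under 0.05 after Benjamini-Hochberg adjustment (0.236% of the tested miRNAs did) and 0 before it (7.78%). At 5 mg/kg, 0 of 6 passed after adjustment (0% of the tested miRNAs) and 0 before it (9.43%). Against each other, the doses differed in 0 of 6 after adjustment (0.236%) and in 1 before it (3.77%), miR-186-3p. The median difference of the members was -0.05 at 1 mg/kg and 0.025 at 5 mg/kg on the log2 scale, beside -0.03 and -0.0035 over the tested miRNAs. The 95% intervals were narrowest for miR-186-5p, from -0.22 to 0.084 at 1 mg/kg and from -0.16 to 0.14 at 5 mg/kg, and widest for miR-188-5p, from -0.45 to 0.16 and from -0.37 to 0.24.

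**Figure D1:**
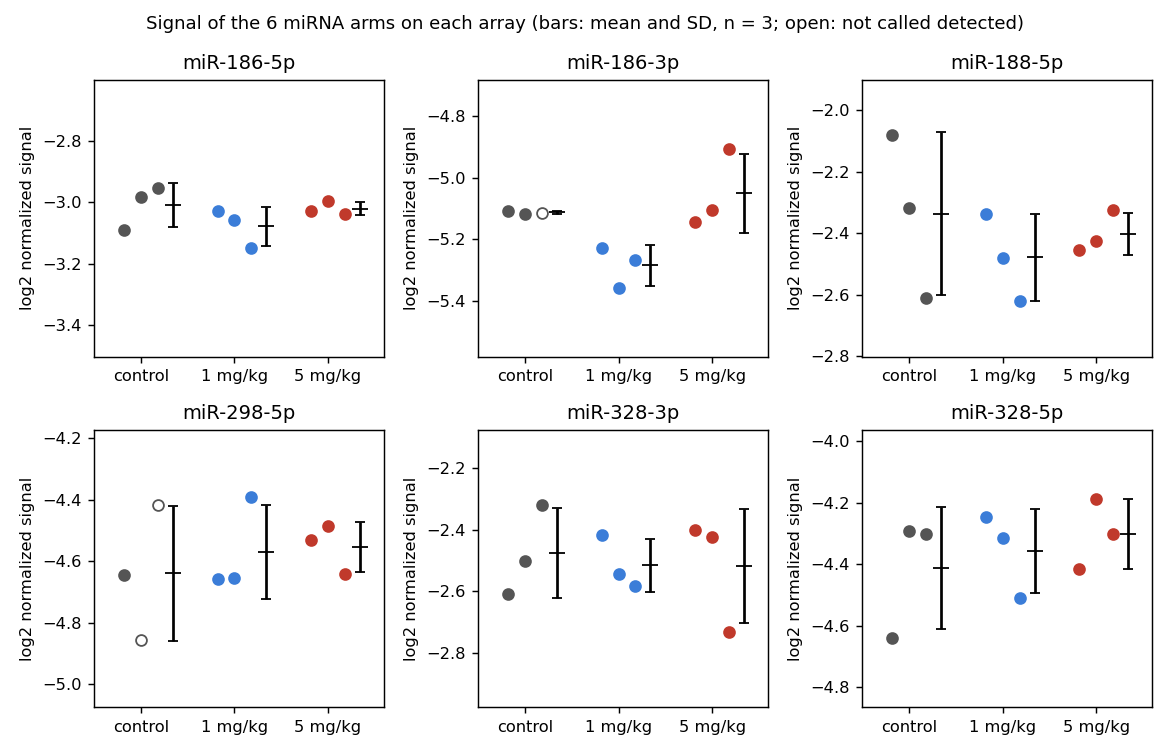
Log2 signal of each member, relative to the 75th percentile of the detected miRNAs of the same array, for the 3 arrays of each group, with the mean and SD beside them and open points where the miRNA was not called detected. The panels span the same height, and the groups overlap for every member except miR-186-3p, whose 1 mg/kg arrays lie under both other groups.

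**Figure D2:**
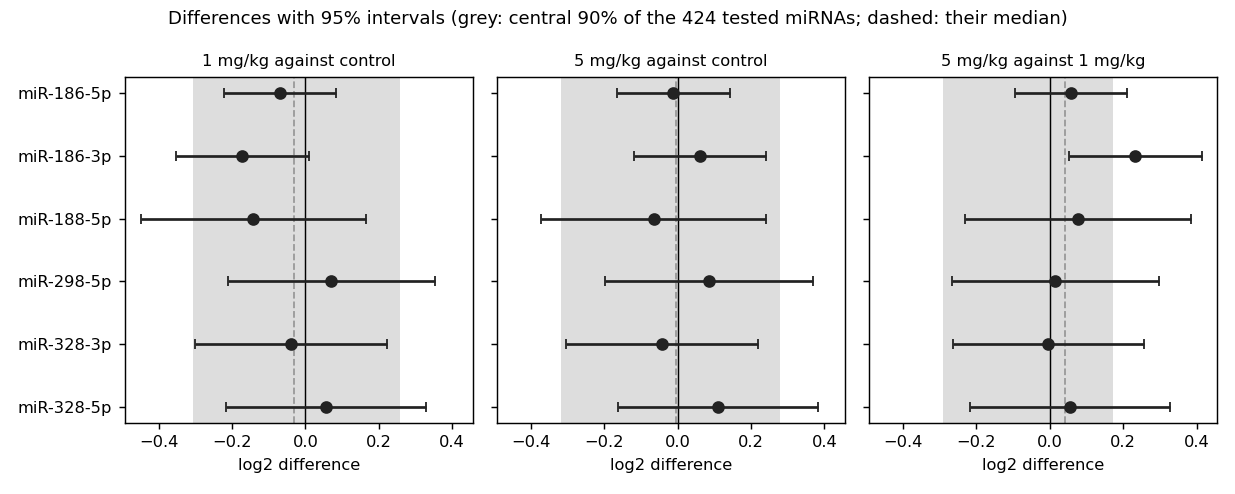
Log2 difference of each member in the 3 comparisons (points) with 95% intervals from limma (bars), over the central 90% of all 424 tested miRNAs (grey) and their median (dashed). In 17 of the 18 cases the interval holds 0, the exception being miR-186-3p between the doses.

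miR-186-5p was the steadiest member. Its summed probe signal was 63.6, 70.2 and 63.6 intensity units on the control arrays, 62.1, 72.0 and 69.0 at 1 mg/kg and 67.8, 69.3 and 74.8 at 5 mg/kg. The groups overlapped, and its within-group SD of 0.06 on the log2 scale was the 29th lowest of the 424, beside a median of 0.14. Relative to the control it differed by -0.07 ± 0.07 (SE) at 1 mg/kg and by -0.01 ± 0.07 at 5 mg/kg (limma adjusted p = 0.865 and 0.946). Its 20-base and 21-base probes gave -0.06 and -0.07 at 1 mg/kg, and -0.0068 and -0.013 at 5 mg/kg. The sign at 5 mg/kg turned under 7 of 25 other settings, among them no scaling (0.10).

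miR-186-3p, the opposite arm, was weak, and its groups separated in part. Its signal was 15.71, 15.97 and 14.22 units on the control arrays, 13.50, 14.60 and 15.90 at 1 mg/kg and 15.64, 16.05 and 20.48 at 5 mg/kg, and in these units the 1 mg/kg arrays overlapped both other groups. After scaling, its log2 signal was -5.11, -5.12 and -5.11 on the control arrays, -5.23, -5.36 and -5.27 at 1 mg/kg and -5.14, -5.11 and -4.91 at 5 mg/kg. On this scale the 1 mg/kg arrays lay below all control arrays, and below all 5 mg/kg arrays. The arrays did not overlap in either direction for 12.3% of the tested miRNAs at 1 mg/kg against the control and for 7.31% between the doses. At 5 mg/kg against the control, where 16% of the tested miRNAs did not overlap, no member was among them. The difference was -0.17 ± 0.08 (SE) from the control at 1 mg/kg (limma adjusted p = 0.543), 0.06 ± 0.08 at 5 mg/kg (adjusted p = 0.817) and 0.23 ± 0.08 between the doses (adjusted p = 0.995). Without scaling, the difference at 1 mg/kg was -0.062 (adjusted p = 0.923), and that between the doses was 0.24 and did not pass before adjustment. Without 5 mg/kg replicate 3, the highest array, the scaled difference between the doses was 0.16 and no longer passed before adjustment.

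The 4 probes of miR-186-3p did not share that difference. The 22-base probe, which read 8.01 to 9.74 units over the 9 arrays, and the 21-base probe, which read 4.69 to 6.43, differed between the doses by 0.0065 ± 0.07 and 0.06 ± 0.09. The 20-base probe read 1.33, 0.835 and 0.482 units at 1 mg/kg and 2.01, 1.77 and 3.68 at 5 mg/kg, and differed by 1.53 ± 0.48 (limma adjusted p = 0.999 over the 929 probes fitted), while the 19-base probe was below 0 on 6 of 9 arrays. Of the 17 members' probes above 0 on every array, the 20-base probe was the only one under 0.05 before adjustment between the doses (4.41% of probes). After adjustment no member's probe passed (0.323%). The arrays of the doses did not overlap for 2 of the 17 (6.89% of probes), the 20-base probe and the 12-base probe of miR-188-5p (0.16). For the 19-base and the 20-base probe of miR-186-3p, 0 of 90 spots each were well above background.

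miR-298-5p hardly moved as a sum of its probes, yet its longest probe read higher after both doses. The summed signal was 21.6, 19.2 and 23.0 units on the control arrays, 20.1, 23.8 and 29.1 at 1 mg/kg and 23.9, 24.7 and 24.6 at 5 mg/kg. These groups overlapped, with differences from the control of 0.07 ± 0.12 and 0.09 ± 0.12 on the log2 scale (limma adjusted p = 0.902 and 0.817). The 16-base probe alone read 8.12, 8.42 and 7.95 units on the control arrays, 10.8, 13.4 and 12.7 at 1 mg/kg and 12.1, 10.9 and 11.2 at 5 mg/kg. Every exposed array thus lay above every control array, and well above background were 0 of 30 control spots, 11 of 30 at 1 mg/kg and 10 of 30 at 5 mg/kg.

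Fitted alone, the 16-base probe of miR-298-5p differed from the control by 0.48 ± 0.08 at 1 mg/kg (limma adjusted p = 0.111 over 929 probes) and by 0.37 ± 0.08 at 5 mg/kg (adjusted p = 0.332), and the doses by -0.11 ± 0.08. It was singled out after its values were seen, and its miRNA entered the test only through the exposed groups, so its separation from the control is not independent support. No member's probe passed after adjustment (0.215% of probes did at 1 mg/kg, 0% at 5 mg/kg). Of the 17 members' probes above 0 on every array it was the only one under 0.05 before adjustment at 1 mg/kg (7.86% of probes) and at 5 mg/kg (9.36%). The scaled arrays of the 16-base probe also separated from the control at both doses. Such separation held for 1 of these 17 probes at 1 mg/kg (13.6% of all probes) and for 3 of 17 at 5 mg/kg (15.5%). At 5 mg/kg the 15-base probe of miR-298-5p and the 22-base probe of miR-186-3p separated too, both below the control (-0.54 and -0.08). Both comparisons share the control arrays.

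The 3 shorter probes of miR-298-5p did not follow. At 1 mg/kg they gave -0.03 ± 0.32 (13 bases), -0.17 ± 0.22 (14 bases) and -0.56 ± 0.31 (15 bases), and at 5 mg/kg 0.36 ± 0.32, -0.16 ± 0.22 and -0.54 ± 0.31. The 15-base probe read 5.24 to 5.61 units on the control arrays and 3.10 to 4.67 at 5 mg/kg, below all of them, while at 1 mg/kg it reached 6.33. Across the 3 shorter probes 1 of 270 spots was well above background.

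Of the exposed arrays only 1 mg/kg replicate 1 shared a slide row with the control arrays. For the rest, exposure and place on the slides cannot be told apart. On the 16-base probe of miR-298-5p, 1 mg/kg replicate 1 lay 0.46 above the mean of the 3 control arrays in row 1. On row 1 of the other slide, 5 mg/kg replicate 3 lay 0.24 above that mean. The row number as a block joins row 1 of both slides. With it, the differences at 1 and 5 mg/kg were 0.41 and 0.30, both under 0.05 before adjustment, with limma adjusted p = 0.839 and 0.999. With the normexp background model, which adds an offset of 50 units to signals of 7.95 to 13.4 units, they were 0.0081 and -0.017.

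**Figure D3:**
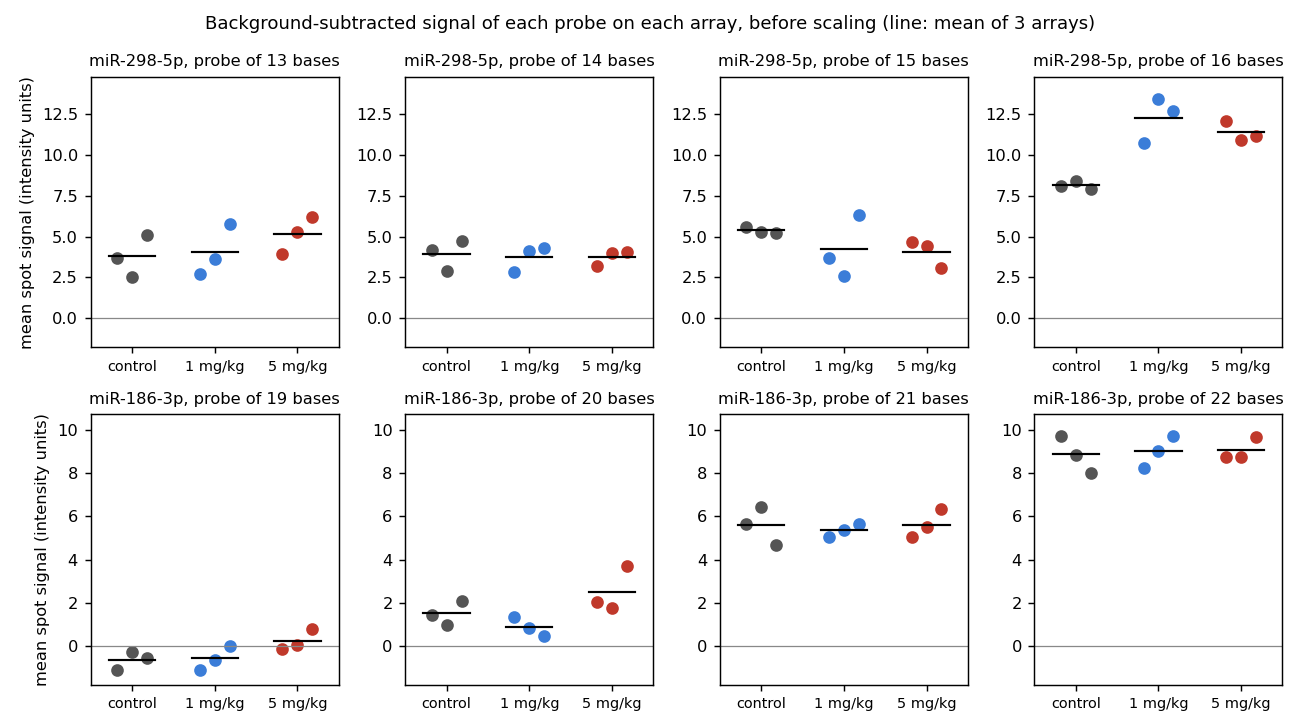
Mean background-subtracted signal over the spots of each probe of miR-298-5p (top) and miR-186-3p (bottom), in intensity units before scaling, on the 3 arrays of each group, with the group mean as a line. The 6 exposed arrays lie above the 3 control arrays for the 16-base probe of miR-298-5p and not for its shorter probes, and the 2 short probes of miR-186-3p lie near 0.

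The call of detection and the authors' table treat miR-298-5p differently from its signal. Control replicate 1, where it was called detected, read 8.12 units on the 16-base probe, less than the 8.42 of control replicate 2, where it was not. In the deposited log2 table, control replicates 2 and 3 hold -3.32 and -3.29, the values that miR-188-3p, detected nowhere, has on those arrays, while control replicate 1 holds -2.03 and the 6 exposed arrays -2.43 to -1.75. On that table the difference at 5 mg/kg was 0.94, the only pass of a member there before adjustment (limma adjusted p = 0.603).

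miR-188-5p varied most among the control arrays. Its signal was 128, 111 and 80.6 units in control, 100.3, 107 and 99.6 at 1 mg/kg and 101, 103 and 122 at 5 mg/kg. The controls spanned all but the lowest 1 mg/kg value on the log2 scale, with a control SD of 0.26 beside 0.14 at 1 mg/kg and 0.07 at 5 mg/kg. The differences from the control were -0.14 ± 0.13 and -0.06 ± 0.13 (limma adjusted p = 0.847 and 0.884). All 4 probes had values below 0 in both comparisons, from -0.20 to -0.08 at 1 mg/kg and from -0.13 to -0.01 at 5 mg/kg. Without control replicate 3, the lowest control, the difference at 1 mg/kg was -0.28 and passed before adjustment (limma adjusted p = 0.561), and without control replicate 1, the highest, it was -0.01.

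The miRNAs most like miR-188-5p over the 9 arrays, by Pearson correlation of log2 signals, are given as a description, since all miRNAs of an array share its scaling. They were miR-6385 (r = 0.985), miR-494-3p (0.976) and miR-1224-5p (0.965). Their control SDs were 0.26, 0.32 and 0.26, and their differences at 5 mg/kg -0.09, -0.15 and -0.05. They were chosen on the same arrays, so these values are not independent of those of miR-188-5p.

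**Figure D4:**
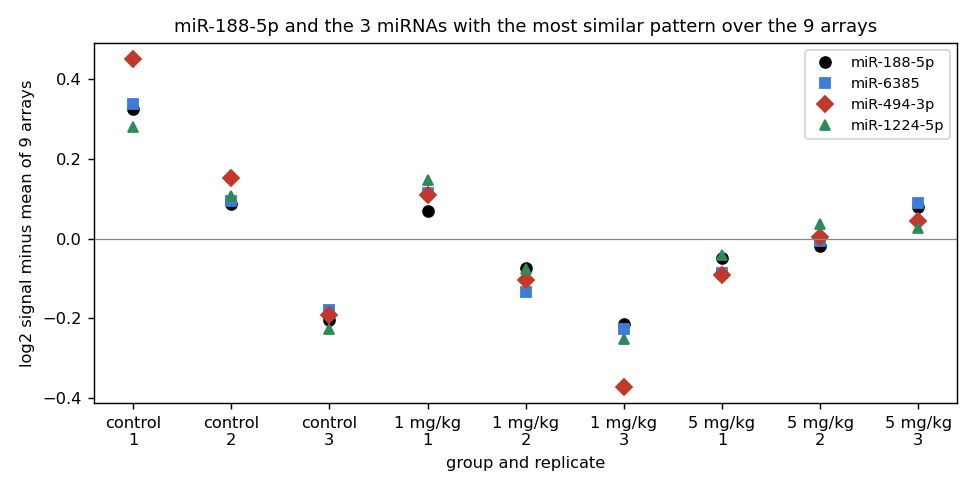
Log2 signal of miR-188-5p and of the 3 miRNAs with the most similar pattern, each minus its own mean over the 9 arrays, by group and replicate. The 3 were chosen for their correlation with miR-188-5p over these arrays, and for all 4 control replicates 1 and 3 lie at opposite ends of the control group.

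The hairpin neighbours of miR-188-5p did not pass a test either. The Clcn5 list holds 10 arms, of which 8 are on the array and 5 were tested, with 0 under 0.05 before adjustment in any comparison. Below 0 were 3 of these 5 at 1 mg/kg (60.1% of the tested miRNAs), 4 of 5 at 5 mg/kg (51.2%) and 5 of 5 between the doses (32.1%). At 5 mg/kg these 5 ran from -0.16 ± 0.09 (miR-500-3p) to 0.01 ± 0.09 (miR-532-5p), with a median of -0.06. Next to miR-298, miR-296-5p differed by 0.15 ± 0.11 at 1 mg/kg and 0.10 ± 0.11 at 5 mg/kg (limma adjusted p = 0.799 and 0.795).

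miR-328-3p, the better measured arm of miR-328, showed no shift beyond its spread. Its signal was 88.9, 98.0 and 98.7 units in control, 94.9, 103 and 102 at 1 mg/kg and 105, 103 and 92.4 at 5 mg/kg. The groups overlapped, and 5 mg/kg replicate 3 held both the lowest scaled value of all 9 arrays and the widest departure from its group. The differences from the control were -0.04 ± 0.11 at each dose (limma adjusted p = 0.943 and 0.884). Without 5 mg/kg replicate 3 the difference at 5 mg/kg was 0.06. The 17-base probe gave 0.02 at both doses and the 18-base probe -0.05.

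miR-328-5p had the largest fitted difference of the members at 5 mg/kg, still within its spread. Its signal was 21.7, 28.3 and 25.0 units in control, 26.7, 30.1 and 26.9 at 1 mg/kg and 25.9, 30.4 and 31.1 at 5 mg/kg. Control replicate 1 was the lowest of the 9 arrays and the groups overlapped. The differences were 0.06 ± 0.12 and 0.11 ± 0.12 (limma adjusted p = 0.909 and 0.784), and without control replicate 1 they were -0.06 and -0.0042. Of its spots, 47 of 120 were well above background in control, 68 of 120 at 1 mg/kg and 74 of 120 at 5 mg/kg. The 13-base probe gave 0.12 ± 0.11 and 0.13 ± 0.11, and the 12-base probe -0.04 ± 0.15 and 0.08 ± 0.15.

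The other miRNAs that the study names for BACE1 were set beside the members. Of 12 arms of miR-9, miR-29, miR-107 and miR-574 on the array, 10 were tested. At 1 mg/kg all 10 were below 0, with a median of -0.11, against 60.1% of the tested miRNAs below 0 and 4 of the 6 members. At 5 mg/kg 7 of 10 were below 0, with a median of -0.07, against 51.2% of the tested miRNAs and 3 of the 6 members. Between the doses 1 of 10 was below 0, with a median of 0.04, against 32.1% of the tested miRNAs and 1 of the 6 members. After adjustment 0 of 10 passed in limma at 1 mg/kg (0.236% of the tested miRNAs), 5 mg/kg (0%) or between the doses (0.236%). Before it 1 of 10 passed in each comparison (7.78%, 9.43% and 3.77% of the tested miRNAs). These were miR-29b-1-5p at 1 mg/kg (-0.17 ± 0.07), miR-574-5p, the miRNA the study pursued, at 5 mg/kg (-0.21 ± 0.09), and miR-9-5p between the doses (0.17 ± 0.07). The study chose miR-574-5p on these samples, so its direction on these arrays is not independent evidence. The study also reports the decrease by quantitative PCR.

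The scanner files also give a total per miRNA, which for miR-186-3p and miR-298-5p does not hold their own signal alone. On the 8 arrays where miR-186-3p was called detected, its total was 203 to 281 units, 75.7 to 101 times the sum of its own probe totals. It equalled its highest probe total plus the whole total of miR-185-5p to within 0.000279%. For miR-298-5p the total was 36.6 to 54.7 units on 7 arrays, 8.40 to 12.6 times its own, and equalled its highest probe total plus the total of miR-296-5p to within 0.000117%. For the other 4 members the total was the sum of the probe totals on every array.

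**Figure D5:**
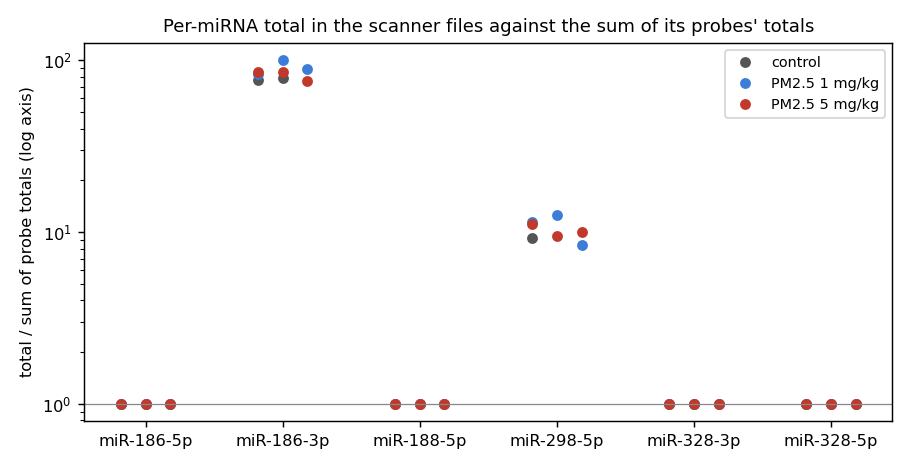
Total signal per miRNA as the scanner files give it, divided by the sum of the totals of the probes of that miRNA, on each array where the miRNA was called detected (log axis, points coloured by group). The ratio is 1 for 4 members, 8.40 to 12.6 for miR-298-5p and 75.7 to 101 for miR-186-3p.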

How the data were processed

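The authors scanned the arrays with Agilent Feature Extraction 10.7 (submitters' processing notes) and deposited, for each spot, mean, background and background-subtracted signals in intensity units with outlier and detection flags. They also deposited a log2 table of 1268 rows, 1247 of them named as mouse miRNAs. GeneSpring is named in the methods, and the normalization is not given in the sources used here. From the background-subtracted signals, outlier spots were left out, spots averaged per probe, probes summed per miRNA, and each array scaled by the 75th percentile of the 395 miRNAs called detected throughout. Anything under an array's lowest detected signal took that signal's value before log2. Group means were fitted with limma 3.58.1 (R 4.3.3) over all 9 arrays, with two-sided moderated tests and Benjamini-Hochberg adjustment over 424 miRNAs, or over 929 probes. Deviations from the group means of arrays with the same replicate number correlated at 0.14 to 0.39 between the doses. Between control and exposed arrays they correlated at -0.65 to 0.74. The methods name no pairing, these values do not settle whether there is any, and the main fit used none. The fit was also run on simulated data with the same spread for every miRNA. That simulation held no slide, row or near-background effects, so it does not cover them. The members and lists were chosen with earlier results of these data known: the 6 arms, the other arms of their hairpins, the study's other BACE1-linked miRNAs, genomic neighbours, the 3 most similar miRNAs and cell type markers. Probes differ in affinity, so a probe's signal was compared between arrays only. The number of arrays limits the precision.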

Additional observations from a re-analysis of the deposited data

How the results depend on the processing

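The members were refitted under 25 other settings (24 for miR-186-3p and miR-298-5p), 9 of which leave out 1 array, and no member passed after adjustment under any of them. The log2 differences whose sign turned follow, and the causes were not tested. Without scaling, miR-186-5p gave 0.040 and 0.10 (1 and 5 mg/kg against control), miR-188-5p 0.049 (5 mg/kg) and miR-328-3p 0.070, 0.071 and 0.00064 (1 mg/kg, 5 mg/kg, 5 against 1 mg/kg), where the median of all tested miRNAs was 0.078 at 1 mg/kg and 0.11 at 5 mg/kg. With the files' total signal, which for miR-186-3p and miR-298-5p carries another miRNA and where that median was 0.10 and 0.14, miR-186-5p gave 0.070 and 0.14, miR-186-3p 2.17 (1 mg/kg), miR-188-5p 0.091 (5 mg/kg), miR-298-5p -0.032 (5 against 1) and miR-328-3p 0.10, 0.11 and 0.013. With normexp, miR-298-5p gave -0.062, -0.066 and -0.0046, miR-328-5p -0.053 and -0.047, miR-186-3p -0.071 (5 mg/kg), and the 16-base probe of miR-298-5p -0.017 (5 mg/kg). With the slide row as a block, miR-298-5p gave -0.019 and -0.0035, miR-186-5p 0.0054 and miR-188-5p 0.044 (both 5 mg/kg). The slide as a block, which equals leaving out 5 mg/kg replicate 3, gave miR-186-3p -0.011 and miR-328-3p 0.064 (5 mg/kg) and 0.10 (5 against 1). Of the 5 mg/kg values, miR-186-5p was 0.085 on the deposited table and 0.0069 with quantile normalization, and miR-188-5p 0.0056 with array weights. Between the doses, miR-298-5p was -0.011 with the percentile over all miRNAs, and miR-328-3p 0.070 with array weights and 0.0025 with the mean over probes.

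Leaving out 1 array gave, at 1 mg/kg, -0.037 to 0.18 for miR-298-5p, -0.10 to 0.040 for miR-328-3p and -0.059 to 0.13 for miR-328-5p. At 5 mg/kg it gave -0.052 to 0.017 for miR-186-5p, -0.011 to 0.11 for miR-186-3p, -0.20 to 0.063 for miR-188-5p, -0.022 to 0.20 for miR-298-5p, -0.11 to 0.064 for miR-328-3p and -0.0042 to 0.17 for miR-328-5p. Between the doses it gave -0.030 to 0.10 for miR-298-5p, -0.062 to 0.10 for miR-328-3p and -0.022 to 0.11 for miR-328-5p. Single probes turned the sign for miR-328-5p (12 bases, -0.044), miR-328-3p (17 bases, 0.021 and 0.016) and miR-186-3p (21 and 22 bases, -0.10 and -0.079 at 5 mg/kg). For miR-298-5p they did so with 13 bases (-0.035), 14 bases (-0.17 and -0.16), 15 bases (-0.56 and -0.54) and, between the doses, 16 bases (-0.11).

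Before adjustment, 1 member was under 0.05 at 1 mg/kg with array weights, the mean over probes, the methods' LSD comparison, only the groups compared or the slide block (miR-186-3p) and with the total signal (miR-298-5p). Leaving out 1 array gave 0 to 1 there, with miR-186-3p passing without 5 mg/kg replicate 3 and miR-188-5p without control replicate 3. At 5 mg/kg the count was 1 on the deposited table (miR-298-5p) and 2 with the total signal (miR-298-5p and miR-328-5p). Between the doses it was 0 on the deposited table, with no filter, no scaling, normexp, the slide block, the total signal, or only the miRNAs detected on all arrays, where miR-186-3p and miR-298-5p are not tested. Leaving out 1 array gave 0 to 1 there, with miR-186-3p lost without 1 mg/kg replicate 2 or 5 mg/kg replicate 3. Over the miRNAs fitted in each setting, the counts before adjustment ran from 8 to 780 at 1 mg/kg, from 14 to 120 at 5 mg/kg and from 8 to 35 between the doses. After adjustment they ran from 0 to 758, 0 to 2 and 0 to 2. The 780 and 758 came with no filter, where all 1247 miRNAs were fitted. Undetected miRNAs under their array's lowest detected signal were raised to it, and that floor differed between groups. For miR-298-3p, raised on all 9 arrays, the mean log2 signal was -6.06 in control, -6.45 at 1 mg/kg and -6.28 at 5 mg/kg. The part of the floor in these 2 counts was not tested.

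The replicate number as a block changed no call of a member. Under it miR-186-3p differed between the doses by 0.23 (limma adjusted p = 0.919) and still passed before adjustment. The 16-base probe of miR-298-5p, under 18 settings chosen after seeing the data, ran from 0.0081 to 0.59 at 1 mg/kg and from -0.017 to 0.48 at 5 mg/kg. It was under 0.05 before adjustment under 17 at each dose (all but normexp) and after it under 1, array weights at 1 mg/kg (0.48, limma adjusted p = 0.0246, over a range of 0.0246 to 0.959). The signals of miR-186-3p and miR-298-5p lie close to background, which limits what can be said of them.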

Other observations

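Beyond miR-188-5p, the miRNAs most like each member over the 9 arrays were miR-22-5p (Pearson r = 0.861) for miR-186-5p, miR-139-5p (0.901) for miR-328-3p and miR-30c-1-3p (0.914) for miR-328-5p. miR-30c-1-3p was also second for miR-186-5p (0.839). Among the 4 members detected throughout, r was 0.70 between miR-186-5p and miR-328-5p, 0.60 between miR-186-5p and miR-328-3p, 0.38 between the arms of miR-328 and -0.42 between miR-188-5p and miR-328-3p. These are descriptions over 9 arrays that share their scaling.

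The total signal that the files give per miRNA went beyond the miRNA's own probes for many entries. Over 3837 pairs of a detected miRNA and an array, 2765 totals were within 2% of the sum of the probe totals and 801 were over 3 times that sum. In 562 of these 801 (70.2%), the total equalled the miRNA's highest probe total plus the whole total of 1 other miRNA to within 0.01%.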
